A study of Homo sapiens with 12 samples.

Results

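The imprinted genes are 36 transcripts chosen by name from the known imprinted domains of the human genome, and all 36 were found among the 60651 genes of the count table. Their symbols were matched to the Ensembl identifiers of the table through the GENCODE annotation. The choice was by name, but it was made with earlier results of these data known. RNA was sequenced from HUCCT1 and EGI-1, both established human cholangiocarcinoma (bile duct cancer) lines labelled as wild-type, grown in RPMI1640 and in DMEM respectively. HUCCT1 received vehicle (DMSO) or 1000 nM decitabine, and EGI-1 received vehicle, 500 nM decitabine, 200 nM talazoparib or the combination of both agents at these doses, all for 72 h. There were 2 libraries for each of the 6 arms, 12 in all. Decitabine is a cytosine analog that enters DNA and traps DNA methyltransferases (DNMTs), so that methylation is lost as cells divide, and talazoparib inhibits PARP1 and PARP2. The names of the talazoparib libraries carry a different number from the dose in the labels, and the dose given here is that of the labels.

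An imprinted gene is expressed mainly from the copy inherited from 1 parent, because DNA methylation set in the egg or the sperm marks 1 copy of its domain and is kept through cell division. Such genes lie in clusters, each under a differentially methylated control region, and many act on fetal growth. In cancer cells these marks can be lost or spread to both copies. The counts add up both parental copies, so they show the amount of a transcript and not which copy made it, and DNA methylation was not measured in these libraries.

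Total counts lay between 32519985 and 34965627 in the HUCCT1 libraries and between 23139065 and 33181930 in the EGI-1 libraries. The bile duct epithelial markers KRT7, KRT19, EPCAM, SOX9, KRT8 and KRT18 were detected in all 12 libraries. Of 4 hepatocyte markers, TTR was at 0 throughout, and ALB and APOA1 had at most 3 and 6 counts in any library. SERPINA1 had 2350 and 1590 counts with vehicle and 3381 and 2862 with decitabine in HUCCT1, and 506 to 933 in EGI-1. Replicate 2 of the EGI-1 combination stood apart, with 66 genes at 20 or more counts that had at most 3 in the other EGI-1 libraries, against 0 to 2 such genes in each of those. That library also held leukocyte transcripts, with 381 counts of PTPRC and 148 of CD3E, where the other EGI-1 libraries had 1 to 7 and 0 to 4. The T lymphocyte genes TRAC, CD2, CD3D and CD3G had 122, 54, 46 and 34 counts, against at most 7, 1, 3 and 0. The listed leukocyte markers CD68 and CD14 did not stand apart, at 7 and 71 counts against 0 to 10 and 42 to 96. Log2 fold changes of the genes named for the combination are therefore also given without that library where they were tested. In HUCCT1 the summed level of 4 fibroblast markers was 27.0 to 30.3 CPM (counts scaled to the library total) with vehicle and 161.6 to 192.5 CPM with decitabine. Most of that sum was COL1A1, with 805 and 896 counts with vehicle and 5089 and 5611 with decitabine. PDGFRB went from 11 and 22 to 76 and 84 counts, and DCN from 0 and 0 to 12 and 7. COL3A1 had at most 2 counts in these libraries. The 3 endothelial markers summed to 4.1 to 5.47 CPM with vehicle and 24.9 to 25.99 CPM with decitabine, and the 6 biliary markers to 14460 to 16250 CPM and 8840 to 10220 CPM. A list of 12 T lymphocyte genes, among them those named above, summed to 108.3 CPM in EGI-1 combination replicate 2. In the other EGI-1 libraries it summed to 30.37 to 60.78 CPM. In HUCCT1 it summed to 15.15 and 17.61 CPM with vehicle and 45.69 and 50.77 CPM with decitabine, where CD3E went from 0 and 1 to 17 and 23 counts. The part of these shifts in the values of the imprinted genes was not tested, and in bulk RNA fewer cells of a type and less RNA per cell cannot be told apart.

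Many imprinted genes had few or no counts in both lines. DLK1, a Notch-like ligand, SNURF and the MAGE family genes NDN and MAGEL2 had 0 counts in all 12 libraries, which allows at most 3 counts per library. PEG3, ZIM2, SNRPN and GNAS-AS1 had at most 3 counts in any library. Of the exon bases of SNURF, PEG3, ZIM2, SNRPN and GNAS-AS1, only 47.9% to 56.9% are free of other annotated genes, so reads that these genes share with others may be missing from their counts. At the other end, 13 members had at least 100 counts in every library, among them PEG10, GNAS, BLCAP, IGF2R, UBE3A, MEST and KCNQ1OT1. On a scale of CPM per kilobase of exon, the retrotransposon-derived gene PEG10 was the highest member in HUCCT1 with vehicle, at 77.1 ± 0.171 (SD, n = 2), followed by GNAS, the stimulatory G protein alpha subunit, at 28.4 ± 0.319 and BLCAP at 18.5 ± 0.232. In EGI-1 with vehicle the order began with GNAS at 23.4 ± 0.210 CPM per kilobase (SD, n = 2) and PEG10 at 16.5 ± 0.0700. The next members there, IGF2R at 12.3 ± 0.187, BLCAP at 12.3 ± 0.407 and MEST at 12.04 ± 0.141 CPM per kilobase, did not differ from each other beyond their spread.

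The comparison of decitabine with vehicle in HUCCT1 asks whether imprinted transcripts change when DNA methyltransferases are inhibited. Some imprinted genes without reads in vehicle had reads after decitabine. Of the 13 members at 0 counts in both vehicle libraries, 3 had over 3 counts in both decitabine libraries, namely IGF2, MEG3 and MKRN3, and of all 25511 genes at 0 in both vehicle libraries 2.49% did so. IGF2, a fetal growth factor (ENSG00000167244.21, chr11:2129112-2158391, minus strand), had 0 counts in both vehicle libraries and 49 and 25 counts in the decitabine libraries. Against the limit of 3 counts per vehicle library this was at least 12-fold higher, and edgeR called it (adjusted p = 1.50e-06). The groups did not overlap, and IGF2 stayed at 0 in all 8 EGI-1 libraries. Only 55.6% of the exon bases of IGF2 are free of other annotated genes. Its antisense neighbour IGF2-AS moved from 0 and 0 to 6 and 14 counts, so where the 2 overlap their reads cannot be assigned without the strand setting, which is not given in the sources used here. H19, the maternally expressed long non-coding RNA of the same domain, had 0 and 0 counts with vehicle and 3 and 16 with decitabine. This was at least 3.20-fold higher, but H19 was below the filter on low counts and was not tested, and the decitabine libraries differed widely from each other.

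**Figure D1:**
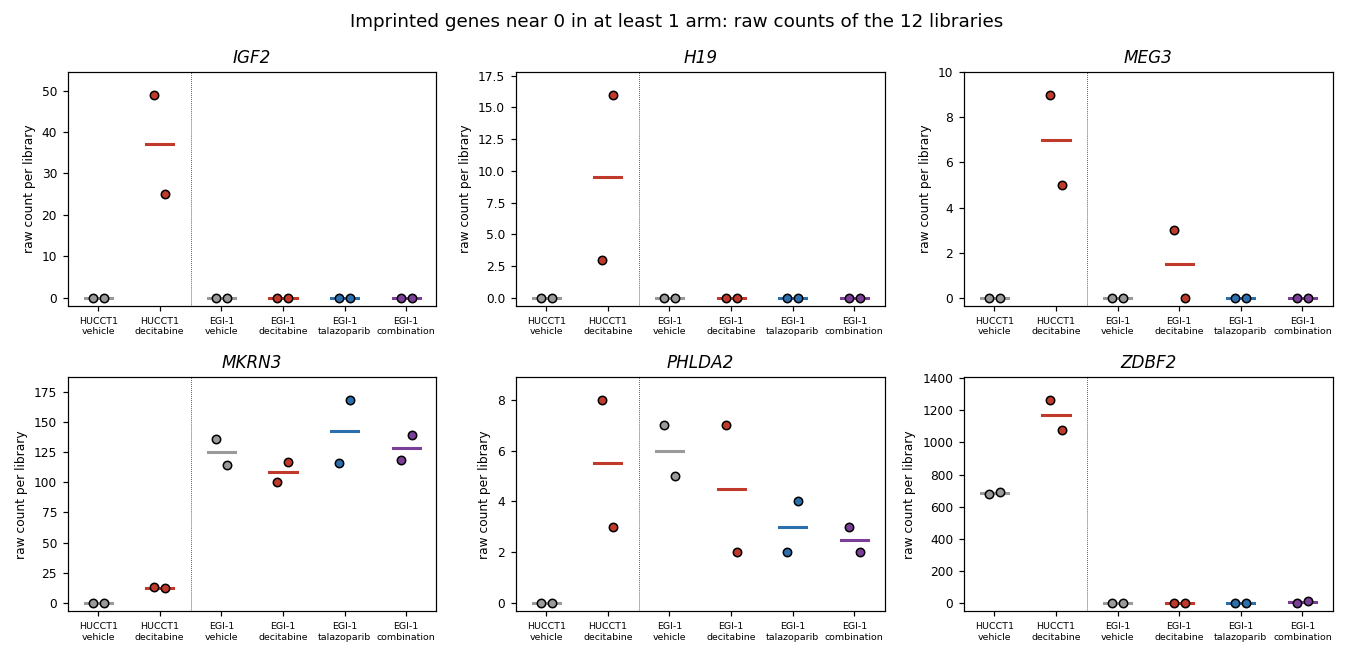
Raw counts per library (vertical axis, linear) of 6 imprinted genes that were near 0 in at least 1 arm, over the 6 arms (horizontal axis). Points are the 12 libraries, short lines the mean of the 2 libraries of an arm, and the dotted line separates HUCCT1 from EGI-1. IGF2 reads appear in the HUCCT1 decitabine libraries alone, at 49 and 25 counts, while MKRN3 is at 100 counts or more in every EGI-1 library and ZDBF2 is near 0 there.

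In the imprinted region of chromosome 15, which is lost from the paternal copy in Prader-Willi syndrome, decitabine was followed by reads of a single member. MKRN3, a makorin ring finger protein expressed from the paternal copy (ENSG00000179455.10, chr15:23565674-23630075, plus strand), had 0 and 0 counts with vehicle and 13 and 12 with decitabine in HUCCT1. The groups did not overlap, the level was at least 4.1-fold higher, and edgeR called the difference (adjusted p = 0.000589). The antisense gene ENSG00000260978, which overlaps MKRN3, had 0 and 0 counts with vehicle and 2 and 0 with decitabine. NDN, MAGEL2, SNURF and SNRPN of the same region remained at 0 counts in the decitabine libraries. UBE3A, the ubiquitin ligase at the end of the region, imprinted in neurons, stood at 119 and 106 CPM with vehicle and 116 and 113 CPM with decitabine, a log2 fold change of 0.01 that was not called.

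At the DLK1-MEG3 domain on chromosome 14 the maternally expressed non-coding RNA MEG3 had 0 and 0 counts with vehicle and 9 and 5 with decitabine, at least 2.27-fold higher and below the filter for testing. MEG8, its non-coding neighbour, had 8 and 7 counts with vehicle and 20 and 13 with decitabine, and its log2 fold change of 1.09 was not called. The paternally expressed RTL1 had 4 and 1 counts with vehicle and 6 and 3 with decitabine, and DLK1 had none. At the KCNQ1OT1 domain on chromosome 11, PHLDA2, which limits placental growth, had 0 and 0 counts with vehicle and 8 and 3 with decitabine, at least 1.77-fold higher and not tested. The cell cycle inhibitor gene CDKN1C had 0 and 2 counts with vehicle and 4 and 5 with decitabine, a ratio of 4.42 with a 95% counting interval of 0.916 to 42.1. KCNQ1OT1 itself, the long non-coding RNA of the paternal copy, was close to level at 22.8 and 24.2 CPM with vehicle and 24.5 and 23.3 CPM with decitabine. The transporter gene SLC22A18 had a log2 fold change of 0.16 that was not called.

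Over the fit of all 22479 genes tested in HUCCT1, 22 members were tested and 14 were below the filter. Of the 22, 7 were higher and 2 lower with decitabine at an adjusted p under 0.05, where 19.6% of all genes tested were higher and 13.9% lower. The median log2 fold change was 0.09 over the members and 0.00 over all genes, and it was 0.09 also with IGF2 and MKRN3 at their lower bounds. Nothing particular to imprinted genes is read from these shares, and the members are described singly.

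Among the members tested, PEG10 showed the largest fall. PEG10, whose protein derives from a retrotransposon gag gene (ENSG00000242265.6, chr7:94656325-94669695, plus strand), stood at 515 and 516 CPM with vehicle and at 286 and 250 CPM with decitabine. The groups did not overlap, and the level fell by 0.95 ± 0.11 on the log2 scale (SE, adjusted p = 1.24e-07, edgeR). SGCE, epsilon-sarcoglycan, which shares the PEG10 control region and is read in the opposite direction (chr7:94524204-94656572, minus strand), was also lower. Its levels were 24.2 and 23.6 CPM with vehicle and 17.6 and 19.98 CPM with decitabine, without overlap, and it fell by 0.36 ± 0.13 on the log2 scale (adjusted p = 0.0340). This call was lost without either vehicle library or decitabine replicate 1 (adjusted p = 0.0578 to 0.247, with a log2 fold change of -0.27 without the latter) and under DESeq2 (adjusted p = 0.0697). CASD1, which lies at the far end of SGCE and is no member, had 575 and 495 counts with vehicle and 611 and 503 with decitabine.

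FAM50B, a paternally expressed retrocopy of FAM50A (ENSG00000145945.7, chr6:3849373-3851320, plus strand), was at 7.71 and 8.39 CPM with vehicle and at 15.9 and 21.1 CPM with decitabine. The groups did not overlap, and the log2 fold change was 1.19 ± 0.16 (adjusted p = 1.12e-06). The parent gene FAM50A, on another chromosome, had 2437 and 2481 counts with vehicle and 2481 and 2522 with decitabine, so it did not move with its copy. ZDBF2, a DBF-type zinc finger gene on chromosome 2 (ENSG00000204186.10, chr2:206274663-206314427, plus strand), rose from 22.4 and 22.8 CPM to 39.5 and 36.3 CPM. Its log2 fold change was 0.74 ± 0.12 (adjusted p = 2.89e-05), and the groups did not overlap.

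DIRAS3, a RAS-like GTPase that restrains growth (ENSG00000162595.7, chr1:68045886-68051717, minus strand), had 5 and 10 counts with vehicle and 31 and 21 with decitabine. The log2 fold change was 1.74 ± 0.53 (adjusted p = 0.0122), and the groups did not overlap. The call was lost without vehicle replicate 1 (log2 fold change 1.32, adjusted p = 0.121), without decitabine replicate 1 (1.49, adjusted p = 0.161) and under DESeq2 (adjusted p = 0.0748), so it rests on few counts. MEST, an alpha/beta hydrolase (ENSG00000106484.16, chr7:130486171-130506465, plus strand), stood at 23.8 and 23.1 CPM with vehicle and 31.4 and 30.5 CPM with decitabine, a log2 fold change of 0.39 ± 0.12 (adjusted p = 0.0142). Its groups were apart, but the call was lost without decitabine replicate 1 (adjusted p = 0.0816) or vehicle replicate 2 (adjusted p = 0.0941). INPP5F, an inositol polyphosphate phosphatase of which a shorter isoform is imprinted (ENSG00000198825.15, chr10:119726042-119829147, plus strand), was at 36.2 and 33.5 CPM with vehicle and 46.0 and 40.8 CPM with decitabine. Its log2 fold change of 0.31 ± 0.12 had an adjusted p of 0.0482, close to the threshold, and the call was lost without either vehicle library or decitabine replicate 1 (log2 fold changes 0.21 to 0.36, adjusted p = 0.0765 to 0.341), without a filter and under DESeq2.

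**Figure D2:**
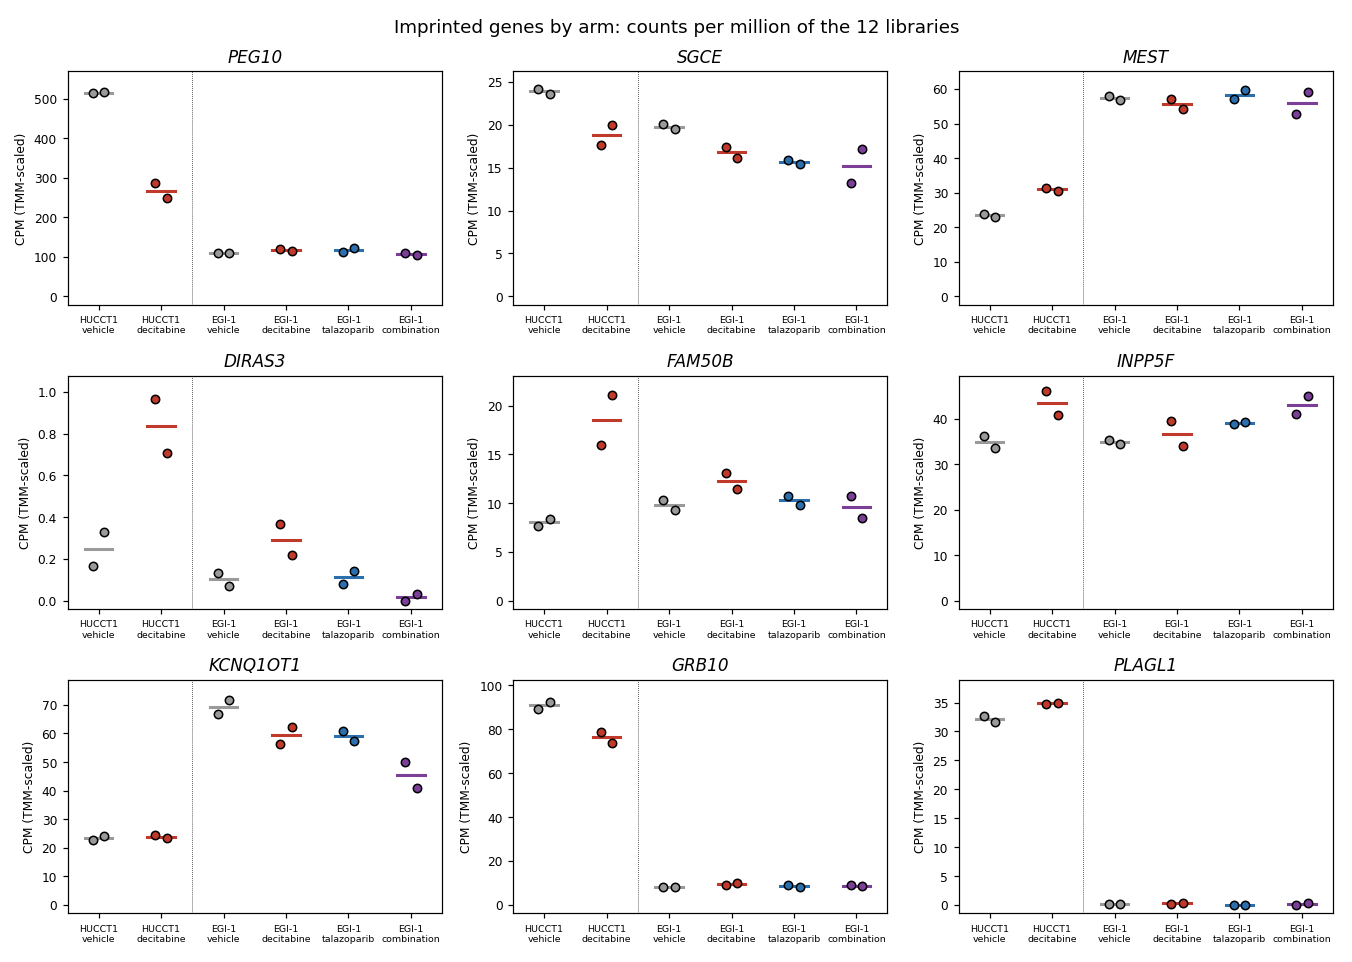
Level in CPM (vertical axis, linear, scaled with TMM factors over all libraries) of 9 imprinted genes over the 6 arms (horizontal axis). Points are the 12 libraries, short lines the mean of the 2 libraries of an arm, and the dotted line separates HUCCT1 from EGI-1. PEG10 lies at 515 and 516 CPM in the HUCCT1 vehicle libraries and at 286 and 250 CPM with decitabine, while its EGI-1 values lie between 106 and 122 CPM.

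The other members tested in HUCCT1 were not called. GRB10, an adaptor that dampens insulin and IGF receptor signalling, was at 89.3 and 92.3 CPM with vehicle and 78.9 and 73.6 CPM with decitabine, and its log2 fold change of -0.26 ± 0.11 did not pass (adjusted p = 0.0666). PLAGL1, the zinc finger factor ZAC1, had a log2 fold change of 0.11 and its overlapping non-coding RNA HYMAI one of 0.42, with 45 and 34 counts of HYMAI with vehicle and 32 and 75 with decitabine. The log2 fold changes of GNAS, BLCAP, NNAT, IGF2R, NAP1L5 and L3MBTL1 lay between -0.28 and 0.08, and none was called. KCNK9, a potassium channel gene, had 12 and 5 counts with vehicle and 3 and 4 with decitabine. PEG3, ZIM2 and GNAS-AS1 had 0 counts with vehicle and at most 2 in a decitabine library, which is at the floor and gives no fold. No member was lost from detection, since the 5 members at 0 in both decitabine libraries were also at 0 in both vehicle libraries. Of all 22326 genes at 0 in both decitabine libraries 10.5% had a count with vehicle, so nothing particular to the members is read from this.

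CG dinucleotides, the sites of DNA methylation in these cells, were counted in the 300 bases around the start of each gene from the RefSeq promoter table (GRCh38.p14), which holds 22 of the 36 members. Where a gene had several windows, the one with most CG was taken. The median was 27.5 CG per window for the members and 16.0 for the 27303 genes of the table, and 20 or more CG were present in 63.6% of the members and 44.7% of all genes. The 6 members called higher with decitabine in HUCCT1 that have a window held 15 to 50 CG, and the 9 members tested without a call held 18 to 49. Those counts are descriptions and were not tested. The sequences below are the 250 bases upstream of the start, 5′ to 3′ in the direction of the gene with every CG in capitals. MKRN3, FAM50B and ZDBF2 are shown because their transcripts rose, and NDN because it lies in the region of MKRN3 and stayed at 0. DIRAS3 is left out because its window lies within its own annotated exons.
MKRN3 (chr15:23565424-23565673, plus strand, GRCh38.p14): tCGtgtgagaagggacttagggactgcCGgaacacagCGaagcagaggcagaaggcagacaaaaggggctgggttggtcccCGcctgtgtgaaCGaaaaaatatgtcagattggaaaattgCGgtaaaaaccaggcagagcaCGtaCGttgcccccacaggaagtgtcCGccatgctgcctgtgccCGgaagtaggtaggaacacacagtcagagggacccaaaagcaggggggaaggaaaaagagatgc
NDN (chr15:23687306-23687555, minus strand): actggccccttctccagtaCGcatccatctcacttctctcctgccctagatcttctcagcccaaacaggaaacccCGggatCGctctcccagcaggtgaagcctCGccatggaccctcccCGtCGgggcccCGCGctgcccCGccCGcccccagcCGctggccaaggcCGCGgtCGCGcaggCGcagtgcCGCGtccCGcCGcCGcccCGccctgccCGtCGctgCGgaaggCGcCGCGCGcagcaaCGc
FAM50B (chr6:3849123-3849372, plus strand): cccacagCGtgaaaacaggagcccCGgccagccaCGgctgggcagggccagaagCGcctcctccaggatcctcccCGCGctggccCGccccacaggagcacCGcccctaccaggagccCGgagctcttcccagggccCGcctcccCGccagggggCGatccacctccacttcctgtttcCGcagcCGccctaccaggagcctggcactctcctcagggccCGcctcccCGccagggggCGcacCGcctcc
ZDBF2 (chr2:206274413-206274662, plus strand): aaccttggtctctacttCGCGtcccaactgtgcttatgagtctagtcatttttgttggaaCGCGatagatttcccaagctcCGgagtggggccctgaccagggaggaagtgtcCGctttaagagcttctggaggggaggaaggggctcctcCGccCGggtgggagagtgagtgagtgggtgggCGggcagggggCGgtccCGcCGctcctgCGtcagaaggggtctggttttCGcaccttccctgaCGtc
The NDN sequence holds 30 CG, against 10 for MKRN3, 18 for FAM50B and 15 for ZDBF2. For ZDBF2 the window shown is that of its annotated start. A second RefSeq window for ZDBF2, with 50 CG in 300 bases against 18 around the start shown, is the one counted in the range above. The MKRN3 stretch lies within an exon of the antisense gene ENSG00000260978, and the other 3 lie outside all annotated exons.

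In EGI-1 the effect of the same agent at 500 nM could be tested for 18 of the 36 members, and the other 18 were below the filter. Of 18 members tested, 0 were called by edgeR and 0 by DESeq2, and 0.544% of all 22406 genes tested were called in either direction. At an unadjusted p under 0.05 there were 2 members, FAM50B, with a log2 fold change of 0.33 ± 0.13 (adjusted p = 0.409), and KCNQ1OT1, with -0.22 ± 0.09 (adjusted p = 0.431). FAM50B stood at 10.3 and 9.31 CPM with vehicle and 13.1 and 11.5 CPM with decitabine, so its groups did not overlap. DIRAS3 had 4 and 2 counts with vehicle and 11 and 6 with decitabine and was below the filter. IGF2 and H19 were at 0 in every EGI-1 library, and MEG3 had 3 counts in decitabine replicate 1 and 0 in the other 7 EGI-1 libraries.

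Talazoparib alone also gave 0 calls among the 18 members by edgeR and by DESeq2, where 4.12% of all genes were called. SGCE, with a log2 fold change of -0.34 ± 0.12 (adjusted p = 0.1305), and KCNQ1OT1, with -0.23 ± 0.09 (adjusted p = 0.186), were the 2 members at an unadjusted p under 0.05. Both were called in a fit of the vehicle and talazoparib arms alone.

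In EGI-1 KCNQ1OT1 was lower with the combination, and all comparisons with vehicle in this line share the same 2 vehicle libraries. KCNQ1OT1, the unspliced antisense RNA that silences neighbouring genes in cis (ENSG00000269821.1, chr11:2597308-2700003, minus strand), was at 66.7 and 71.8 CPM with vehicle, 56.4 and 62.4 CPM with decitabine, 60.9 and 57.3 CPM with talazoparib and 50.03 and 41.1 CPM with the combination. The combination libraries lay below all others. Against vehicle the level fell by 0.61 ± 0.09 on the log2 scale (adjusted p = 8.94e-05), and without combination replicate 2 it fell by 0.47 (adjusted p = 0.00434). Of the genes that KCNQ1OT1 is known to silence, SLC22A18 was at 10.2 and 8.66 CPM with vehicle and 10.7 and 8.52 CPM with the combination, and its log2 fold change without combination replicate 2 was 0.17. CDKN1C had 5 and 8 counts with vehicle and 5 and 13 with the combination, with a log2 fold change of 0.52, or -0.13 without combination replicate 2, and was not called. PHLDA2 had 7 and 5 counts with vehicle and 3 and 2 with the combination and was not tested. KCNQ1, which KCNQ1OT1 overlaps on the other strand, had 28 and 17 counts with vehicle and 15 and 14 with the combination. KCNQ1OT1 had 1225 and 1249 counts with the combination. The part of KCNQ1 transcripts in these counts was not tested, and the strand setting is not given.

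SGCE was lower with the combination, at 20.1 and 19.5 CPM with vehicle and 13.2 and 17.1 CPM with the combination, and fell by 0.39 ± 0.12 on the log2 scale (adjusted p = 0.0269). Without combination replicate 2 it fell by 0.59 (adjusted p = 0.00644), while without combination replicate 1 (a fall by 0.21, adjusted p = 0.295) or either vehicle library (adjusted p = 0.119 and 0.162) it was not called. INPP5F was higher, at 35.4 and 34.4 CPM with vehicle and 41.0 and 45.1 CPM with the combination, a log2 fold change of 0.30 ± 0.09 (adjusted p = 0.0220). Without combination replicate 2 it was 0.23 and not called (adjusted p = 0.193), as without either vehicle library (adjusted p = 0.114 and 0.172). With all libraries there were thus 1 higher and 2 lower among the 18 members tested, where 11.1% of all genes tested were higher and 7.61% lower. Fewer members, and fewer of all genes, were called without combination replicate 2. With upper-quartile scaling the calls over all genes turned from 2489 higher and 1705 lower to 2177 and 2244. PEG10, at 111 and 110 CPM with vehicle and 110 and 106 CPM with the combination, had a log2 fold change of -0.04, or -0.01 without combination replicate 2, and was not called.

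Combination replicate 2 also held reads of members that the other EGI-1 libraries lacked. ZDBF2 had 15 counts there and 0 or 1 in the other 7 EGI-1 libraries, and HYMAI had 3 counts there and 0 or 1 elsewhere in EGI-1. These counts stood in the library with the raised PTPRC and CD3E counts. The 4 leukocyte markers summed to 19.96 CPM there and to 1.87 to 3.45 CPM in the others. The part of those transcripts was not tested.

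Against each single agent, KCNQ1OT1 was the only member of 18 called. It fell by 0.40 ± 0.09 on the log2 scale against decitabine (adjusted p = 0.00902), where 7.68% of all genes were called, and by 0.39 ± 0.09 against talazoparib (adjusted p = 0.0305), where 1.92% were. Without combination replicate 2 these were falls by 0.26 (adjusted p = 0.170) and by 0.24 (adjusted p = 0.393), and neither was called. The second was also lost without either vehicle library or either talazoparib library (adjusted p = 0.0800 to 0.235). No member was called for a combination effect other than the added effects of the single agents in log2 units (0 calls by edgeR and by DESeq2, 2 at an unadjusted p under 0.05), where 0.161% of all genes were called. Those 2 were FAM50B, at -0.45 ± 0.19, and PEG10, at -0.23 ± 0.09, and without combination replicate 2 these values were -0.28 and -0.19. FAM50B was at 10.7 and 8.48 CPM with the combination and 10.7 and 9.85 CPM with talazoparib, so these groups overlapped.

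**Figure D3:**
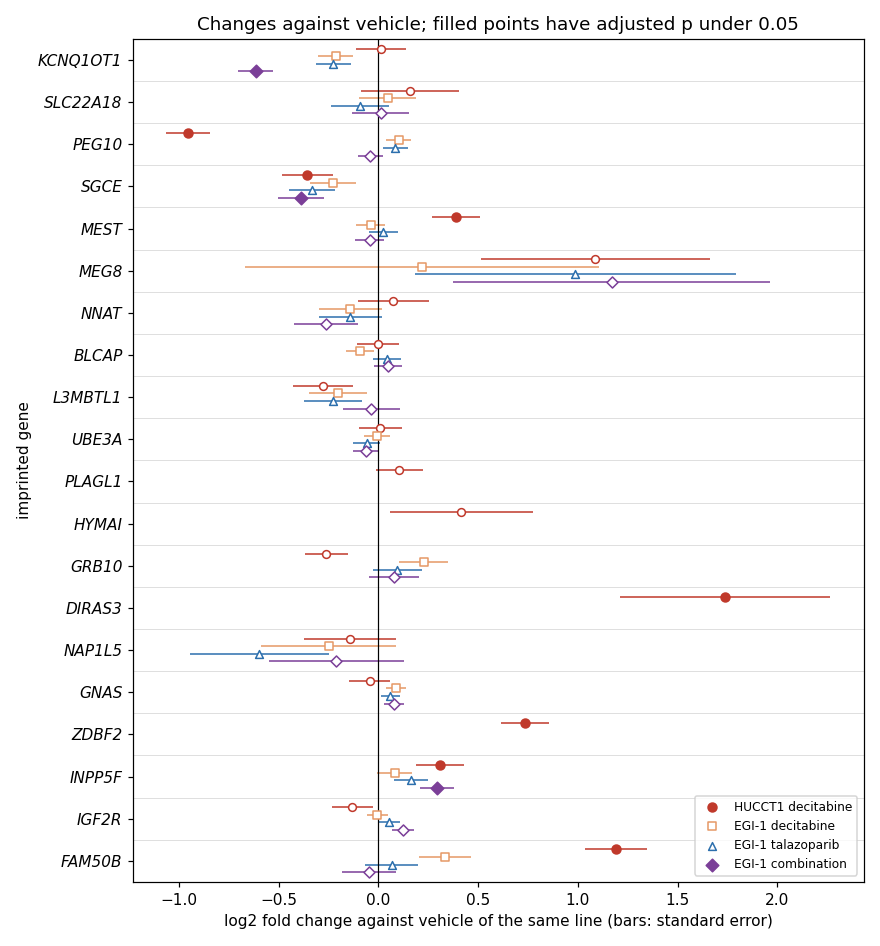
Log2 fold change against vehicle of the same line (horizontal axis) for the 20 imprinted genes that had reads in both HUCCT1 vehicle libraries and were tested in HUCCT1 (vertical axis), for decitabine in HUCCT1 and for decitabine, talazoparib and the combination in EGI-1. Bars are standard errors, filled points had an adjusted p under 0.05, and genes below the filter in EGI-1 have a HUCCT1 point alone. PEG10 (-0.95) and FAM50B (1.19) lie far from 0 in HUCCT1 and near 0 for the combination in EGI-1, and KCNQ1OT1 (-0.61) lies lowest for the combination.

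The vehicle arms show how far the lines differ before treatment. The lines differ also in medium and sequencing lane, which cannot be told apart from the line. Of 23 members tested, 9 were higher and 7 lower in HUCCT1, where 28.5% of all 25096 genes tested were higher and 27.3% lower. Among the genes higher in HUCCT1, PLAGL1 and ZDBF2 were the furthest apart. PLAGL1 had 994 and 956 counts in HUCCT1 and 5 and 7 in EGI-1, a log2 difference of 7.26 ± 0.26 (adjusted p = 6.33e-16), and HYMAI had 45 and 34 counts against 0 and 0, at least 12.6-fold higher. ZDBF2 had 680 and 690 counts in HUCCT1 and 1 and 0 in EGI-1, a ratio of 1320 with a 95% counting interval of 236 to 52100. GRB10 was at 89.3 and 92.3 CPM in HUCCT1 and 8.14 and 8.37 CPM in EGI-1, a log2 difference of 3.46 ± 0.10 (adjusted p = 2.80e-17). PEG10 was higher in HUCCT1 by 2.22 ± 0.08 on the log2 scale (adjusted p = 8.65e-16), while SGCE, which shares its control region, differed by 0.27 ± 0.12 and was not called (adjusted p = 0.0537). NAP1L5, L3MBTL1, BLCAP and GNAS were the other members higher in HUCCT1, by 1.40, 0.78, 0.59 and 0.28 on the log2 scale.

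In the other direction MKRN3 had 0 and 0 counts in HUCCT1 and 136 and 114 in EGI-1, at least 43.2-fold higher in EGI-1. After decitabine MKRN3 in HUCCT1 reached 0.406 and 0.405 CPM, still below the 3.32 to 4.82 CPM of the 8 EGI-1 libraries. KCNQ1OT1 differed by -1.56 ± 0.10 on the log2 scale (HUCCT1 minus EGI-1), SLC22A18 by -1.85 ± 0.18 and MEST by -1.29 ± 0.09. UBE3A differed by -0.34 and IGF2R, the receptor that clears IGF2, by -0.21. CDKN1C had 0 and 2 counts in HUCCT1 and 5 and 8 in EGI-1, a ratio of 6.76 in favour of EGI-1 with a 95% counting interval of 1.53 to 61.7, and its call was lost under DESeq2, with the title number as a replicate block (adjusted p = 0.0890) and without HUCCT1 vehicle replicate 1, either EGI-1 vehicle library or either EGI-1 decitabine library (adjusted p = 0.0502 to 0.245). The call of IGF2R was lost without a filter and without HUCCT1 vehicle replicate 1 or either EGI-1 vehicle library (adjusted p = 0.0584 to 0.0728). Upper-quartile scaling moved the median log2 difference of all genes from -0.01 to -0.13, with the direction of the called members kept.

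**Figure D4:**
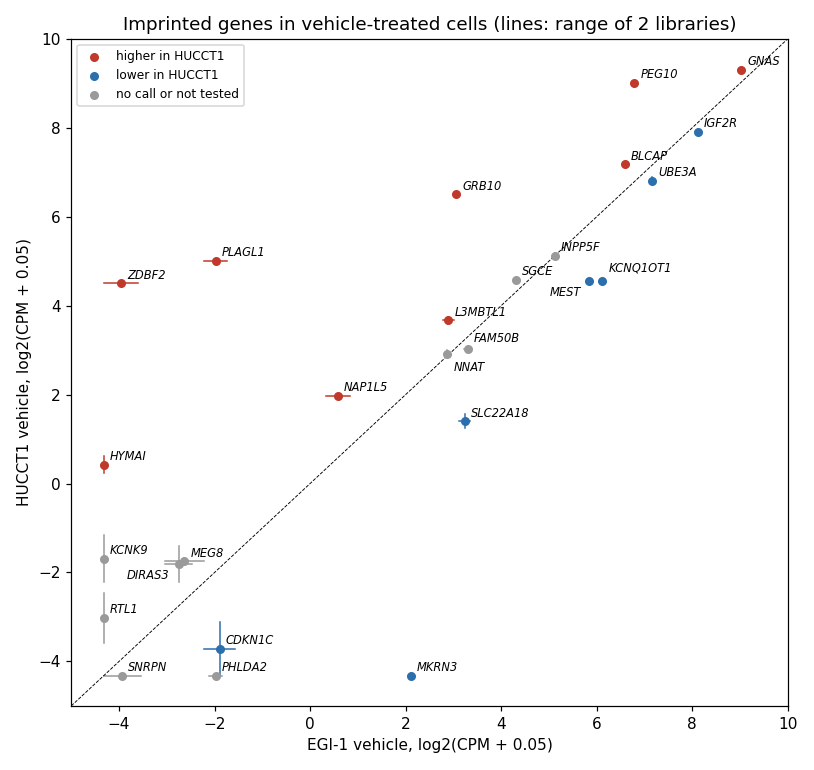
Level in HUCCT1 (vertical axis) against EGI-1 (horizontal axis) with vehicle, both as log2(CPM + 0.05), for the 26 imprinted genes with a read in at least 1 of the 4 vehicle libraries. Points are means and lines the range of 2 libraries, red and blue mark genes called higher and lower in HUCCT1, and the dashed line is equality. ZDBF2, PLAGL1 and HYMAI lie far above the line and MKRN3 far below it.

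Whether decitabine acted differently in HUCCT1 and EGI-1 was tested by an interaction term in a fit of all 12 libraries, at doses of 1000 nM in HUCCT1 and 500 nM in EGI-1, so that line and dose cannot be told apart. Of 23 members, 3 had a higher and 2 a lower effect in HUCCT1, where 8.74% of all genes were higher and 7.20% lower. The effect on PEG10 was lower by 1.04 ± 0.11 on the log2 scale (adjusted p = 5.91e-07), with a fall in HUCCT1 and a log2 fold change of 0.10 in EGI-1. FAM50B was higher by 0.87 ± 0.21 (adjusted p = 0.00568) and MEST by 0.45 ± 0.12 (adjusted p = 0.0142). For GRB10 the difference was -0.47 ± 0.14 (adjusted p = 0.0220), with effects of -0.26 in HUCCT1 and 0.23 in EGI-1 that were each not called. The calls of MEST and GRB10 were lost without either EGI-1 vehicle library or EGI-1 decitabine replicate 2 (adjusted p = 0.0525 to 0.0923), and that of GRB10 also without HUCCT1 decitabine replicate 2 (adjusted p = 0.0729). MKRN3 was called too (adjusted p = 5.13e-05), from 0 and 0 to 13 and 12 counts in HUCCT1 and from 136 and 114 to 100 and 117 counts in EGI-1. IGF2, ZDBF2 and DIRAS3 were not called in this comparison. ZDBF2 and IGF2 had almost no reads in EGI-1, so no difference in effect could be detected at this depth.

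A wider list of imprinted genes from other domains and from the same clusters, 67 of them in the table, was read beside the members. In HUCCT1, 44 were tested with decitabine, of which 13 were higher and 13 lower, where 19.6% and 13.9% of all genes were, and their median log2 fold change was -0.02 against 0.00. DIO3OS, the non-coding RNA beside DIO3 at the far end of the DLK1-MEG3 domain, had 0 and 0 counts with vehicle and 107 and 107 with decitabine, at least 35.1-fold higher. DIO3, a thyroid hormone deiodinase, had 3 and 11 counts with vehicle and 288 and 273 with decitabine. It ranked below the 5 largest log2 fold changes of edgeR and was named after its values were seen. LIN28B, ZNF331 and WT1-AS were also at 0 in both vehicle libraries. In the decitabine libraries LIN28B, an RNA-binding repressor of let-7 maturation, reached 35 and 29 counts, the zinc finger gene ZNF331 38 and 24, and WT1-AS 16 and 17. NTM, a cell adhesion gene, went from 3 and 2 to 118 and 134 counts. Apart from DIO3, the genes named here had the largest log2 fold changes that edgeR estimated for the list in HUCCT1, and all were higher. For the genes at 0 with vehicle the size of the change is not measured, and the bound for WT1-AS was 5.42-fold. The rank therefore does not show that these genes changed more than DIO3 or other genes of the list. The lowest log2 fold change of the list was -1.26. ZNF331 was expressed in all 8 EGI-1 libraries, at 302 to 453 counts. In EGI-1 the exopeptidase gene CPA4 was the only gene of 39 tested called with decitabine, with a log2 fold change of 0.64 ± 0.13 (adjusted p = 0.0289). With the combination CPA4 rose by 1.83 ± 0.12 (adjusted p = 1.48e-08), from 5.32 and 4.85 CPM under vehicle to 18.7 and 17.7 CPM under the combination, and by 1.87 without combination replicate 2. With all libraries 4 genes of the list were higher and 5 lower, where 11.1% and 7.61% of all genes tested were higher and lower. Fewer genes of the list, and fewer of all genes, were called without combination replicate 2. SGK2 and COPG2 fell by 0.83 and 0.46 on the log2 scale, and by 0.74 and 0.55 without that library. CMKLR2 (log2 fold change 1.26) and ADAM23 (-1.23) were called with all libraries, but without combination replicate 2 they stood at 0.84 (adjusted p = 0.342) and -0.76 (adjusted p = 0.293) and were not called.

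Of 30 factors known to set, read, keep or remove methylation imprints, 24 were tested in HUCCT1. Under decitabine 5 were higher and 9 lower, where 19.6% and 13.9% of all genes were. CTCFL, a germline paralog of the insulator protein CTCF, went from 0 and 0 to 46 and 60 counts, and NLRP5, a maternal factor of the egg, from 0 and 0 to 27 and 27. HELLS, a chromatin remodeller needed for DNA methylation, fell by 0.82 ± 0.12 on the log2 scale (adjusted p = 6.26e-06), and UHRF1, which brings DNMT1 to newly copied DNA, by 0.71 ± 0.11 (adjusted p = 1.01e-05). KDM1B, a histone demethylase needed for maternal imprints, rose by 0.65 ± 0.12 (adjusted p = 0.000101). ZFP57, a zinc finger protein that protects imprints, had 1 count in a single library. In EGI-1 none of 22 factors was called with decitabine by edgeR (2 at an unadjusted p under 0.05). With the combination 1 was higher and 10 lower with all libraries, where 11.1% and 7.61% of all genes were higher and lower. The 10 include TET2 and TET3, which remove methylation. Fewer factors, and fewer of all genes, were called without combination replicate 2. ZNF202 fell by 0.54 on the log2 scale, CTCF by 0.53, HELLS by 0.43 and SETDB1 by 0.42, and DNMT3B rose by 0.43. Without combination replicate 2 ZNF202 fell by 0.69, CTCF by 0.59, HELLS by 0.41 and SETDB1 by 0.35, DNMT3B rose by 0.46, and all 5 were still called.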

How the data were processed

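The authors deposited 1 table of raw counts, whole-number read counts per gene without normalization, for all 12 libraries. The methods name fastp, STAR and RSEM on GRCh38 and a stranded total RNA kit for EGI-1, whereas the submitters' processing notes name fastp, Trim Galore, HISAT2 and featureCounts on GRCh38, so the counting program is taken as unsettled. The annotation release and the strand setting are not given in the sources used here, and overlapping genes may share reads. RNA isolation also differs between the methods and the labels. Positions come from GENCODE release 44, and 60437 of the 60651 genes have a symbol.

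Genes were filtered with filterByExpr by arm, scaled with TMM and tested with the robust quasi-likelihood test of edgeR 4.0.16 in R 4.3.3, with Benjamini-Hochberg adjustment over all genes tested. An adjusted p under 0.05 was a call. The 8 EGI-1 libraries were fitted together, the 4 HUCCT1 libraries apart, and all 12 for comparisons between lines. CPM use TMM factors of the 12-library fit. DESeq2 1.42.0, other scalings and filters, a replicate block and leaving out each library were alternatives. The pipeline was tested on simulated data. Values per arm are means ± SD over 2 libraries, and fold changes carry standard errors. Nothing says that the 2 libraries of an arm came from separate cultures, so p-values measure the spread between these libraries. Between the libraries of an arm the chi-square per gene was 2.73 to 12.6, above counting noise, so none was a duplicate. Bounds against arms at 0 use 3 counts per library, and ratios against 1 to 5 counts carry exact (Clopper-Pearson) 95% intervals, both for counting error only. The talazoparib dose is that of the labels.

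The members and all lists were chosen with earlier results of these data known, and a list of 12 T lymphocyte genes and the counts of the other lists and the values of named genes without combination replicate 2 were added after the data were seen. Full values were to be given for members called for decitabine or the combination against vehicle, raw counts for members with at most 10 counts in an arm, and up to 5 called genes of each other list per comparison. PEG3-AS1, PWAR6 and IPW of the wider list had no match by symbol.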

Additional observations from a re-analysis of the deposited data

Results flagged for a closer look

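The decitabine effect differed between HUCCT1 and EGI-1 for 5 imprinted genes by the interaction term of edgeR. These were PEG10 (adjusted p = 5.909e-07, log2 difference -1.04), MKRN3 (adjusted p = 5.134e-05), FAM50B (adjusted p = 0.005676, log2 difference 0.87), MEST (adjusted p = 0.01415, log2 difference 0.45) and GRB10 (adjusted p = 0.02196, log2 difference -0.47). In each of these genes both HUCCT1 decitabine libraries lay on the same side of both HUCCT1 vehicle libraries. The genes were picked by a test on the same libraries, so this adds no support. The dose was 1000 nM in HUCCT1 and 500 nM in EGI-1, and line, dose, medium and lane cannot be told apart.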

How the results depend on the processing

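The 35 single-gene calls were each recomputed under 7 to 19 alternatives, 559 values in all. None changed direction, 46 values no longer passed the threshold, and 23 calls held in every setting run, among them IGF2, PEG10, MKRN3, ZDBF2 and FAM50B with decitabine in HUCCT1 and KCNQ1OT1 with the combination against vehicle. For MKRN3 in HUCCT1 these were 7 settings, against 10 for IGF2, PEG10, ZDBF2 and FAM50B, since it was below the filter in the rest. Counts of members called moved as follows, and the cause was not tested. For talazoparib, a fit of the compared arms alone gave 2 in place of 0. For the combination against vehicle, leaving out 1 library gave 1 to 3, with 1 without either vehicle library. For the combination against decitabine, no filter gave 2 (DIRAS3 was added) in place of 1, and leaving out 1 library gave 0 to 2, with 2 without either decitabine library and 0 without combination replicate 2. For the combination against talazoparib, leaving out 1 library gave 0 to 1, and the difference in the decitabine effect gave 3 to 5, with 3 without either EGI-1 vehicle library or decitabine replicate 2. In HUCCT1, no filter gave 11 members (H19, PHLDA2 and MEG3 added, INPP5F lost), DESeq2 gave 6, and leaving out 1 library 6 to 8. The title numbers were not taken to pair the samples. Their deviations correlated at -0.255 to 0.175 over the 6 pairs of EGI-1 arms. HUCCT1 has a single pair of arms (0.275), so a pairing there is not settled. A block by title number raised the HUCCT1 calls over all genes from 7525 to 10136. With the number as a replicate block, the combination against talazoparib gave 0 members, HUCCT1 gave 10 and the other counts of members did not move, although between the lines CDKN1C was lost and FAM50B added. Over all genes, calls moved by more than 1.5 times for decitabine in EGI-1, from 122 to 335 without a filter, 60 and 75 with the blocks by title number and by name series and 43 in a fit of those arms alone. They moved from 431 to 897, 249 and 700 for the combination against talazoparib without a filter, with the title block and in those arms alone. For talazoparib they moved from 923 to 1851 and for the combination against decitabine from 1720 to 963 in those arms alone, and for the departure from the sum from 36 to 71 without a filter. Leaving out 1 library gave 22 to 417 for decitabine in EGI-1, 247 to 1663 for talazoparib, 1850 to 5288 (4194 with all libraries) for the combination against vehicle, 853 to 2544 against decitabine, 111 to 1007 against talazoparib, 27 to 85 for the departure from the sum and 2540 to 3865 (4000 with all) for the difference in the decitabine effect. Depth limits the genes under about 10 counts, where a few reads set the fold.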
